A study of Rattus norvegicus with 12 samples.

Results

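The nuclear genes for the protein complexes of oxidative phosphorylation were followed across a rat array study of tumour cells, the exosomes they shed, and endothelial cells given those exosomes. Members were all genes whose symbol in the platform annotation began as the standard names of subunits do: Nduf for complex I, Sdh for complex II, Uqcr or Cyc1 for complex III, Cox4 to Cox8 for complex IV and Atp5 for complex V. The rule used names and no measured value. It found 61 genes among 13337 named genes, each with 1 probe: 29 of complex I, 4 of complex II, 4 of complex III, 11 of complex IV and 13 of complex V. Members included Ndufs6-ps1, which RefSeq lists as a pseudogene, Ndufa10l1, a near copy of Ndufa10, and Cox7a2l, which is known as a factor that joins complexes III and IV rather than as a fixed subunit of complex IV. The probes of Ndufa10 and Ndufa10l1 may each bind RNA of both genes, so their levels are uncertain. Cyc1, Cox4i2, Cox6b1, Cox7a2 and Ndufa4 were not analysed here.

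Total RNA from 12 samples of the BDX rat strain was hybridised, 1 array per sample, and the values given are non-normalized signal intensities unless a log2 scale is named. Exosomes, small vesicles released into the medium, came from AS-Tspan8 cells (2 arrays) and from AS cells (2 arrays), collected without serum after 36 h of starvation. AS-Tspan8 cells (1 array) are AS cells, a Tspan8-negative rat pancreatic tumour line (1 array), made to express the tetraspanin Tspan8. Endothelial cells of the aorta, written EC, were starved overnight and kept for 24 h with 2% serum and 10 µg/ml of AS-Tspan8 exosomes (2 arrays), with 10 µg/ml of AS exosomes (2 arrays) or without exosomes (untreated EC, 2 arrays). Whether AS-Tspan8 is 1 clone, and whether the arrays of a group came from separate cultures or exosome batches, is stated in none of the labels, so p-values measure the spread between these arrays, which may be technical.

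Oxidative phosphorylation is the final stage of respiration in mitochondria. Complex I takes electrons from NADH and complex II from succinate, complex III passes them from coenzyme Q to cytochrome c, and complex IV passes them to oxygen. Complexes I, III and IV pump protons across the inner membrane, and complex V, ATP synthase, makes ATP as the protons return. Most subunits are encoded in the nucleus, and their messenger RNAs are abundant in most cells and are often regulated together, in part through the transcription factors NRF1, GABP and YY1.

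Between 8563 and 8923 of the 22523 probes were detected on the EC arrays, 9389 on AS-Tspan8 cells and 9269 on AS cells, against 2104 to 3604 on the 4 exosome arrays. A probe was called detected where its detection p-value, the scanner software's comparison with negative controls, was under 0.01. Tspan8 had a signal of 2036 in AS-Tspan8 cells against 75.1 in AS cells, where it was not detected, and it was not detected on any EC or exosome array. On all 6 EC arrays only 3 of 10 endothelial markers were detected, and Cdh5, Vwf, Nos3, Tek, Tie1, Flt1 and Esam were detected on none, whereas 9 of 10 fibroblast markers were detected on all 6. Fibroblast marker signals summed to 743 and 1135 in the tumour cells and to 64421 to 79007 on the EC arrays. The EC label is kept here. In such bulk samples fewer cells of a type and less RNA per cell cannot be told apart.

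The members were among the brightest transcripts of every cell sample. In tumour cells 56 of 61 were detected in the AS-Tspan8 line and 55 of 61 in the AS line, and 53 or 54 of 61 on each EC array, whereas 51.3%, 50.7% and 47.9% to 49.6% of all named genes were detected on the same arrays. The median member signal was 10341 in AS-Tspan8 cells and 6418 in AS cells, and 2649 to 3218 on the EC arrays. Ranked among all named genes of its own array, the median member stood at the percentile 97.3 in AS-Tspan8 cells, 97.6 in AS cells and 95.3 to 95.9 in EC, although probes differ in how brightly they respond. Summed array signals also differed, with 21955900 in AS-Tspan8 cells, 13714500 in AS cells and 10383600 to 12705600 in EC.

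**Figure D1:**
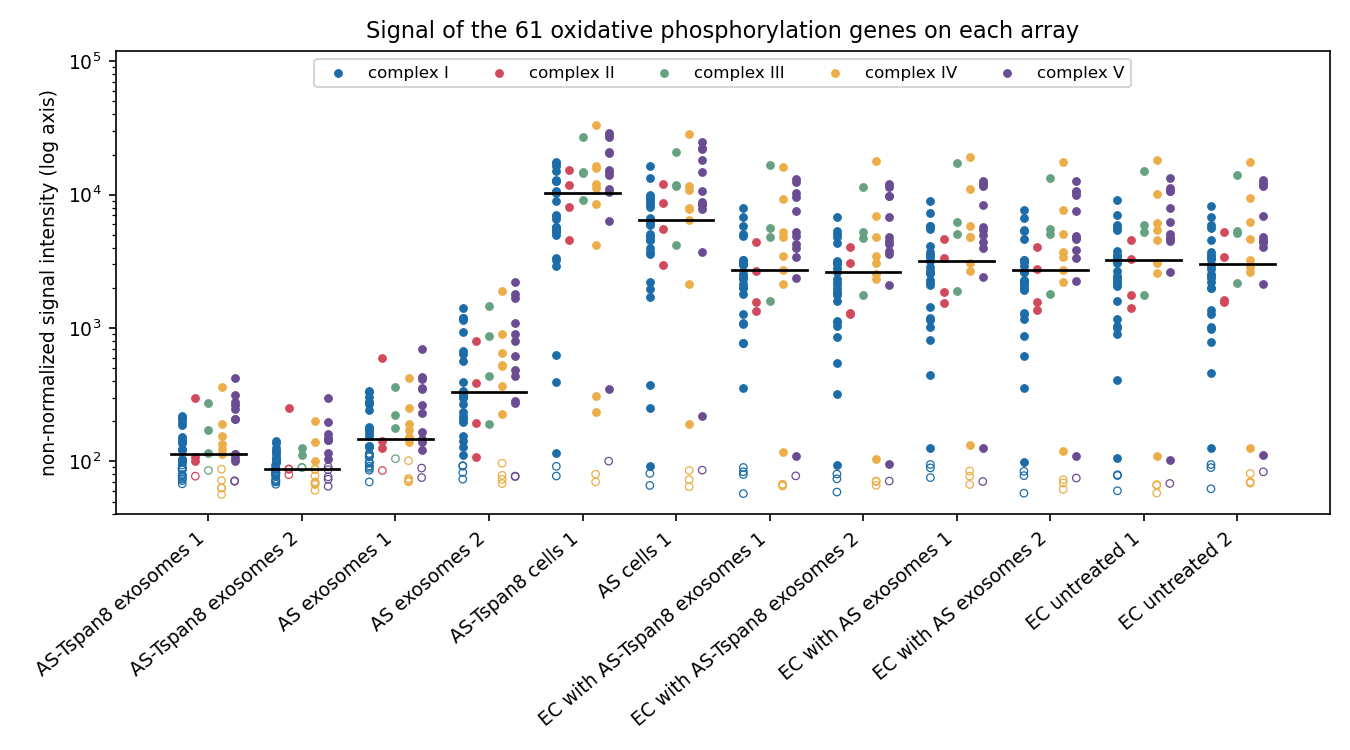
Non-normalized signal (log axis) of the 61 genes on each of the 12 arrays, coloured by complex, with filled points detected, open points not detected and a black bar at the median. The medians lie at 10341 and 6418 in the 2 tumour cell samples, between 2649 and 3218 on the EC arrays and between 88.1 and 330.6 on the exosome arrays.

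A few members stayed dark. Complex IV is assembled with alternative isoforms, and the array held several of them. Cox6a1, the isoform of most tissues, had signals of 33129 in AS-Tspan8 cells, 28284 in AS cells and 16035 to 19100 in EC. Its muscle counterpart Cox6a2 was detected on 1 array, that of AS-Tspan8 cells, at 233 against 85.5 in AS cells, and on no EC array. Cox8a, the widely expressed form, had 12107 in AS-Tspan8 cells and 7938 in AS cells, whereas Cox8b, known from heart and skeletal muscle of rodents, and Cox8c, known from testis, were detected on none of the 12 arrays.

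Subunit c of ATP synthase forms the rotating ring in the membrane, and 3 genes encode the same mature protein. Atp5mc1 had 20865 in AS-Tspan8 cells and 18117 in AS cells, with 4294 to 5027 in EC. Atp5mc2 had 14765 in AS-Tspan8 cells and 8418 in AS cells, with 9717 to 12515 in EC. The probe of Atp5mc3 was detected on none of the 12 arrays, nor was that of Ndufb4, a complex I subunit. Ndufs4, an accessory subunit that stabilises complex I, was detected on neither tumour cell array and on no EC array. Whether these dark probes failed or the RNA was low was not tested.

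The first comparison asked how tumour cells and untreated EC differ in these genes, with AS-Tspan8 and AS cells taken as 2 samples of 1 group. Most members that passed the test were higher in the tumour cells: 33 of 55 tested members were higher and 3 were lower at an adjusted p under 0.05 (limma's moderated test, Benjamini-Hochberg adjusted over all features). Over all 9972 features 28.2% were called higher and 24.2% lower. The median member difference was 0.68 on the log2 scale, tumour cells minus untreated EC, against 0.01 over all features. Higher calls came from each complex: 12 of 27 in complex I, 4 of 4 in complex II, 4 of 4 in complex III, 6 of 8 in complex IV and 7 of 12 in complex V. The 3 lower members were Ndufv3 in complex I, Cox7a2l in complex IV and Atp5mc2 in complex V.

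**Figure D2:**
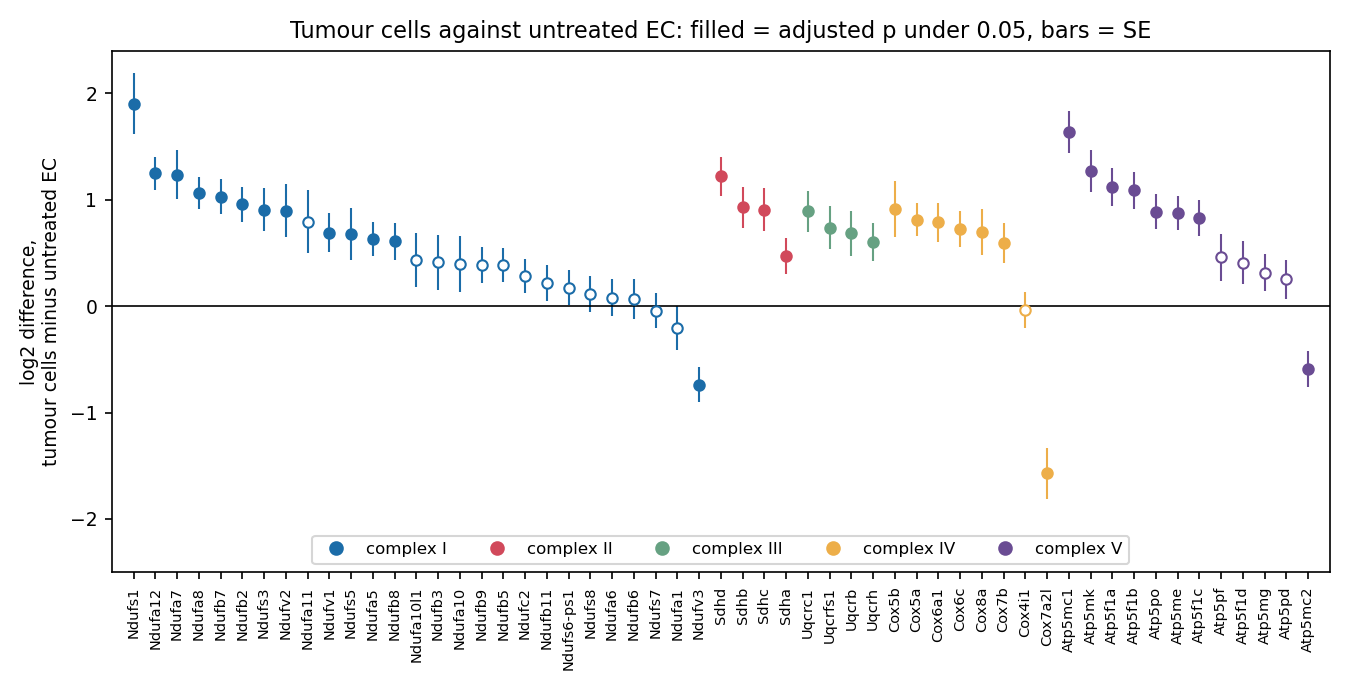
Log2 difference of each tested member, tumour cells (2 arrays) minus untreated EC (2 arrays), with SE bars, grouped by complex; filled points passed an adjusted p of 0.05. All 4 genes of complex II and all 4 of complex III lie above 0, and Ndufv3, Cox7a2l and Atp5mc2 are the filled points below it.

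In complex I the largest rise was that of Ndufs1, the large core subunit that carries iron-sulfur clusters on the electron path. Its signal was 6528 in AS-Tspan8 cells and 6513 in AS cells, against 1032 and 1021 in untreated EC. Both tumour samples lay above both EC samples, and the log2 difference was 1.90 ± 0.29 (SE, limma adjusted p = 0.00138). Ndufa12, an accessory subunit, had 16324 in AS-Tspan8 cells and 9587 in AS cells, against 3398 and 3546 in untreated EC. The groups were apart and the log2 difference was 1.25 ± 0.16 (SE, limma adjusted p = 0.00057). Ndufv3, an accessory subunit of the NADH-binding arm, had 623 in AS-Tspan8 cells and 371 in AS cells, against 406 and 456 in untreated EC. In those signals the groups overlap; after quantile normalization both tumour samples were lower, with a log2 difference of -0.74 ± 0.16 (SE, limma adjusted p = 0.00789), and without scaling between arrays or with scaling to the same median the sign turned, to 0.16 and 0.03.

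All 4 members of complex II and all 4 of complex III passed the test and were higher in tumour cells. The 4 genes of succinate dehydrogenase were higher by 0.47 (Sdha, the flavoprotein that oxidises succinate) to 1.22 (Sdhd, a membrane anchor). Sdhc, the other anchor, had 15319 in AS-Tspan8 cells and 12079 in AS cells, against 4606 and 5269.8 in untreated EC. In complex III the differences ran from 0.60 for Uqcrh, the hinge protein near cytochrome c, to 0.89 for Uqcrc1, a core subunit on the matrix side. Uqcrh had 27129.7 in AS-Tspan8 cells and 20829.5 in AS cells, against 14979.6 and 14016 in untreated EC, with no overlap.

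In complex IV, Cox5b, Cox5a, Cox6a1, Cox6c, Cox8a and Cox7b were higher, by 0.59 to 0.91, and Cox4i1, a large nuclear subunit of the complex, had -0.03 ± 0.17 (SE, limma adjusted p = 0.884). Cox7a2l had 4222 in AS-Tspan8 cells and 2135 in AS cells, against 5407 and 4641 in untreated EC. Both tumour samples were lower, and the log2 difference was -1.57 ± 0.24 (SE, limma adjusted p = 0.00142); without scaling between arrays it was -0.75 (limma adjusted p = 0.163) and with scaling to the same median -0.88 (limma adjusted p = 0.0614), and both missed the threshold.

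In complex V Atp5f1a and Atp5f1b, the alpha and beta subunits of the catalytic head, were higher by 1.12 and 1.09. The subunit c genes went apart. Atp5mc1 stood at the levels given above, 4691 and 4589 in untreated EC, and was higher by 1.64 ± 0.20 (SE, limma adjusted p = 0.000443), whereas Atp5mc2, at 11203 and 12515 in untreated EC, had a log2 difference of -0.59 ± 0.17 (SE, limma adjusted p = 0.0227). The signal of Atp5mc2 overlapped between the groups before normalization. Its call was lost without scaling, at -0.09 (limma adjusted p = 0.868), with scaling to the same median, at -0.22 (limma adjusted p = 0.503), without replicate 2 of untreated EC, at -0.49 (limma adjusted p = 0.122), and without AS cells, at -0.53 (limma adjusted p = 0.0919). Atp5mk, a small subunit that stabilises the enzyme, had 350.0 in AS-Tspan8 cells and 220.4 in AS cells, against 102 and 112 in untreated EC, and was higher by 1.27 ± 0.20 (SE, limma adjusted p = 0.00157).

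The size of the shift depended on the scaling. Without scaling the median of all features moved to 0.78 and that of the members to 1.24, with 41 members called higher and none lower, and with scaling to the same median the values were 0.65 and 1.11, with 47 higher and none lower. Relative to all features the member median was 0.67 higher with quantile normalization and 0.46 higher under both other scalings. All features shifted upward under both other scalings, so the member counts there are not read as a result about the members. Without replicate 2 of untreated EC fewer members passed, and the member median was 0.61 against 0.03 over all features.

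Other genes of the pathway were set beside them. Of 13 tested genes of the tricarboxylic acid cycle 10 were higher in tumour cells and none was lower, among them Pdhb, part of pyruvate dehydrogenase, by 1.60 and Mdh2, a malate dehydrogenase, by 1.32. Of 14 glycolysis genes 12 were higher and none was lower, for example Pfkp, a phosphofructokinase, by 3.49. Assembly factors of the complexes were mixed: 12 of 27 were higher and 2 lower, with Ndufaf5 higher by 1.78 and Sdhaf2 lower, at -1.72. Of 9 genes for electron carriers and coenzyme Q, 3 were higher and none was lower, and Cycs, cytochrome c, was higher by 2.76. Of 10 regulators of mitochondrial biogenesis 5 were higher and 1 lower, with Gabpa, a subunit of GABP, higher by 1.19. The fibroblast markers given above moved with this comparison, and 9 of the 10 tested were lower in the tumour cells; their part in the member differences was not tested.

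Promoter sequences of 53 of the 61 members were held in RefSeq's table for the build GRCr8, each 250 bases before and 50 bases after the annotated start. They were searched on both strands for the NRF1 core GCGCANGCG, the GABP site CCGGAAG and the YY1 site AAGATGGCG, counting overlapping matches. The NRF1 core was found in 30.2% of member promoters, against 9.63% of promoters of the array's named genes and 6.26% of all promoters in the table. The GABP site was found in 30.2%, against 12.8% and 9.22%, and the YY1 site in 11.3%, against 2.61% and 1.93%. At least 1 of the 3 motifs was found in 60.4%, against 21.9% and 15.5%. By complex the NRF1 core was found in 6 of 12 promoters of complex V, 7 of 25 of complex I and 1 of 9 of complex IV.

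Members with any of the 3 motifs had a median log2 difference of 0.68 (29 tested), tumour cells minus untreated EC, and members with none 0.71 (18 tested). All 3 members that were lower had an NRF1 core, as did 8 of the 29 higher members whose promoter was held. Without scaling between arrays and with scaling to the same median no member was called lower, so this count depends on the scaling. Whether the core bears on the direction was not tested. The 3 lower promoters are shown with that of Ndufa12, which was higher and also has the core, and that of Ndufs1, whose rise was the largest in complex I and whose window has a GABP site. Each is read 5′ to 3′ on the strand of the gene, with the matched letters in capitals; the pair of overlapping matches in Atp5mc2 forms 1 capital run.
Cox7a2l, chr6:16936324-16936623, plus strand: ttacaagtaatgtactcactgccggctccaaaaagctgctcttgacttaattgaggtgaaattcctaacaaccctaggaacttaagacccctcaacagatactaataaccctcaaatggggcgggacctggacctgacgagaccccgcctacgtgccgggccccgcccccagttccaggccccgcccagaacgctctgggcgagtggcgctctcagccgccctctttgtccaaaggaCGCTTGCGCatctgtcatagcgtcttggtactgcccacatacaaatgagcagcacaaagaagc
Ndufv3, chr20:9613536-9613835, plus strand: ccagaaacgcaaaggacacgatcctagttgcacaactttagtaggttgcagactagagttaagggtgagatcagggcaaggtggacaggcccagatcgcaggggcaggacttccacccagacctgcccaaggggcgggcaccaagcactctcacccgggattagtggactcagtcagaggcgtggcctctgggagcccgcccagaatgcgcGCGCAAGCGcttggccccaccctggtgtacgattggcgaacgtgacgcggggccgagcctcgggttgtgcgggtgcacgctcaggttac
Atp5mc2, chr7:135678169-135678468, minus strand: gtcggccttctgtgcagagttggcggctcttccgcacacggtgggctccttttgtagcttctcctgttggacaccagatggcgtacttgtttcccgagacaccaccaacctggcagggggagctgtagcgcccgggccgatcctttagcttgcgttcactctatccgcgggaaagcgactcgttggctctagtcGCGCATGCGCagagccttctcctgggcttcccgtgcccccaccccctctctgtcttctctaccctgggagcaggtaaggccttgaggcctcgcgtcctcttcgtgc
Ndufa12, chr7:30658066-30658365, plus strand: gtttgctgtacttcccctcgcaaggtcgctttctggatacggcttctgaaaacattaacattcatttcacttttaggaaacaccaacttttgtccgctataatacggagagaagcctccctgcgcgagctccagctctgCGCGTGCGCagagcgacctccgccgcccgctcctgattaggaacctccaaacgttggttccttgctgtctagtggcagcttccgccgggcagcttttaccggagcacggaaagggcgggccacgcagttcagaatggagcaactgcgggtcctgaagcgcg
Ndufs1, chr9:72073556-72073855, minus strand: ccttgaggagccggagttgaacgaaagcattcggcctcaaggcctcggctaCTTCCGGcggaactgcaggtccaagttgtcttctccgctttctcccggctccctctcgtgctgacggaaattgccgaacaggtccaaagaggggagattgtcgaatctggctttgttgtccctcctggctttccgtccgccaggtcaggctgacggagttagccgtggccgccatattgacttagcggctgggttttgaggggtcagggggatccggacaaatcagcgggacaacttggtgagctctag
A match is a run of letters and says nothing of whether the factor binds there.

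Between the 2 tumour lines, with 1 array each and no test, the members differed little. The median log2 difference, AS-Tspan8 cells minus AS cells, was -0.17 for the 56 members and -0.02 for all features. Of the 56 members 14 were higher and 42 lower, and of all 9421 features 4441 were higher. Without scaling both medians turned positive, to 0.54 for members and 0.84 for all features, and with scaling to the same median to 0.21 and 0.51, so that the members stayed below all features under each. After quantile normalization Cox6a1 alone of the tested members differed by over 2-fold, by 1.23 on the log2 scale, where 2.72% of all features were over 2-fold higher and 1.95% over 2-fold lower. Before normalization its signals were close, at 33129 in AS-Tspan8 cells and 28284 in AS cells, whereas those of Uqcrc1 lay further apart, at 9187 in AS-Tspan8 cells and 4223 in AS cells. The lowest was Ndufs1, at -0.80; its signals were 6528 in AS-Tspan8 cells and 6513 in AS cells, nearly equal before normalization.

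Exosomes carried RNA of many members, at far lower signal than their cells. Of the 61 members 38 and 25 were detected in AS-Tspan8 exosomes and 39 and 51 in AS exosomes, whereas 10.3% and 8.29% of all named genes were detected in AS-Tspan8 exosomes and 11.3% and 19.4% in AS exosomes. Of the 13 complex V genes 11 and 8 were detected in AS-Tspan8 exosomes and 11 and 11 in AS exosomes, whereas of the 11 complex IV genes 6 and 3 were detected in AS-Tspan8 exosomes and 6 and 7 in AS exosomes. The cells themselves had 12 of the 13 complex V genes in each line, and 9 of the 11 complex IV genes in AS-Tspan8 cells and 8 of the 11 in AS cells, so part of the complex IV genes were not detected in the source either, and no test was made between complexes. In all, 25 members were detected on all 4 exosome arrays, 11 of them of complex I and 8 of complex V, 14 on 2 or 3 arrays, 12 on 1 array and 10 on none. All 12 members seen on 1 exosome array were seen on the second AS array.

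**Figure D3:**
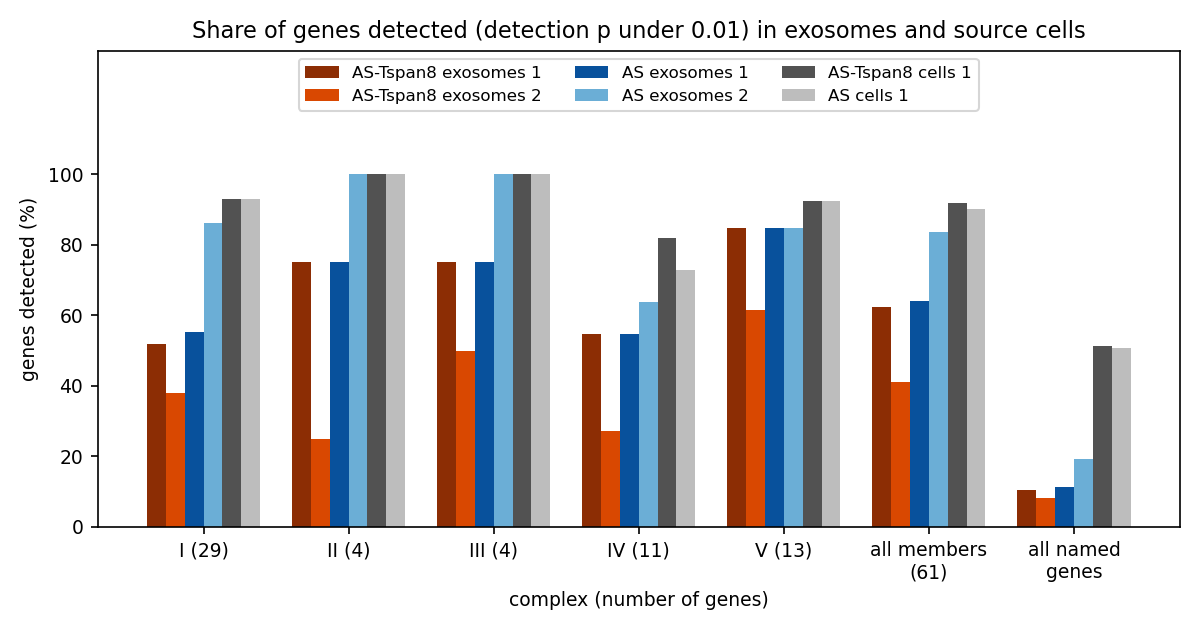
Percent of genes detected (detection p under 0.01) by complex, with bars for the 2 arrays of AS-Tspan8 exosomes, the 2 of AS exosomes and the 1 of each source line, beside all 61 members and all named genes. The member bars stand above those of all named genes on each exosome array, for example 41.0% against 8.29% on the second AS-Tspan8 array.

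Atp5mc1 and Sdhc had the highest mean exosome signals of complexes V and II. Atp5mc1 had 421 and 297 in AS-Tspan8 exosomes and 692 and 2212 in AS exosomes, against 20865 in AS-Tspan8 cells and 18117 in AS cells. All 4 exosome arrays lay far below both cell arrays, with the second AS exosome array above the other three. Sdhc had 296 and 249.7 in AS-Tspan8 exosomes and 599 and 801 in AS exosomes, against 15319 in AS-Tspan8 cells and 12079 in AS cells. Sdha, its catalytic partner in complex II, was near background on the exosome arrays, with 77.4 and 79.5 in AS-Tspan8 exosomes and 85.5 and 107 in AS exosomes, against 4594 in AS-Tspan8 cells and 2955 in AS cells, and it was detected on 1 exosome array. So 1 gene of complex II was detected on all 4 exosome arrays and another on 1.

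In complexes I, III and IV the genes with the highest mean exosome signal were Ndufa11, Uqcrh and Cox6a1. Ndufa11, an accessory subunit in the membrane arm of complex I, had 219 and 127 in AS-Tspan8 exosomes and 334 and 1416 in AS exosomes. Uqcrh had 276 and 126 in AS-Tspan8 exosomes and 360.1 and 1454 in AS exosomes. Cox6a1 had 364 and 201 in AS-Tspan8 exosomes and 421 and 1904 in AS exosomes. In each case the second AS array was the highest and the second AS-Tspan8 array the lowest.

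In the test of exosomes against source cells, with the tumour line in the model, 15 of 56 members were called lower and 1 higher (limma, adjusted p under 0.05), where 40.9% of all features were called lower and 16% higher. The median member difference was -1.78 on the log2 scale, exosomes minus cells, against -1.22 over all features. Of the 56 members 53 were negative, as were 6811 of all 9421 features. Lower calls comprised 5 of 28 members in complex I, 2 of 4 in complex II, 1 of 4 in complex III, 2 of 8 in complex IV and 5 of 12 in complex V. Leaving out 1 array changed the number of members called to 3 without AS cells, 2 without AS-Tspan8 cells, 6 without replicate 1 of AS exosomes, 33 without replicate 2 of AS exosomes, 5 without replicate 1 of AS-Tspan8 exosomes and 6 without replicate 2 of AS-Tspan8 exosomes. Without scaling, 54 members were lower and none higher, with medians of -6.30 for members and -3.63 for all features. With scaling to the same median 55 were lower and 1 higher, with medians of -6.13 and -3.46. Most of all features were called under both of these scalings as well. The number of all features called also moved when single arrays were left out, with counts in the closing section. The median members thus lay below the median of all features by 0.55 with quantile normalization and by 2.67 under both other scalings. With quantile normalization that gap was -0.06 without replicate 2 of AS-Tspan8 exosomes, -0.34 without replicate 1 of AS exosomes, -1.10 without AS-Tspan8 cells and -1.62 without AS cells.

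The called members included core subunits of complexes I and II. Ndufs1 had 75.6 and 70.1 in AS-Tspan8 exosomes and 109.6 and 156 in AS exosomes, against 6528 in AS-Tspan8 cells and 6513 in AS cells (limma adjusted p = 0.0207). Sdha, with the signals above, was also called lower (limma adjusted p = 0.0267). Ndufv1, the core subunit that binds NADH, had 77.9 and 80.8 in AS-Tspan8 exosomes and 85.7 and 111 in AS exosomes, against 3346 in AS-Tspan8 cells and 2222 in AS cells (limma adjusted p = 0.0473). These 3 genes were each detected on 1 exosome array, the second of AS exosomes, so no size of their difference is given. Cox6a1 was detected on all 4 and had a log2 difference of -2.45 ± 0.58 (SE, limma adjusted p = 0.0262). Ndufa7, Cox6c and Atp5mk were called lower too but were detected on no exosome array and had 189.6 to 391.2 in the cells, so no fold is given for them.

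Ndufs4 was the member called higher. Its signal was 78.5 and 92.4 in AS-Tspan8 exosomes and 177 and 129 in AS exosomes, against 77.7 in AS-Tspan8 cells and 66 in AS cells. It was detected on both AS exosome arrays and on no other array of the study. It was therefore tested only because of the group in which it is high. With quantile normalization it was called higher in exosomes (limma adjusted p = 0.0287), and no fold is given, since it was detected on 2 of the 4 exosome arrays and on neither cell array. Without scaling the log2 difference was 1.10 and the call was lost (limma adjusted p = 0.0522), as it was without AS cells (limma adjusted p = 0.128), without replicate 2 of AS-Tspan8 exosomes (limma adjusted p = 0.0654) and with no filter on detection (limma adjusted p = 0.0672). Without either AS exosome array the gene did not pass the filter and was not tested.

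The other lists are read beside the 40.9% of all features called lower. Of the tricarboxylic acid cycle genes 10 of 13 were lower and none was higher. Of 26 assembly factors 12 were lower and none was higher, of 9 genes for electron carriers and coenzyme Q 7 were lower and none was higher, and of 14 glycolysis genes 9 were lower and none was higher. Of 11 biogenesis regulators 4 were lower and 2 higher. Among markers of other cell types, Col1a2 and Dcn, fibroblast genes detected on neither tumour cell array, were called higher in exosomes. Of the 4 endothelial genes tested, Clec14a and Nos3 were called higher and Ramp2 was called lower (limma adjusted p = 0.00219). The smooth muscle gene Smtn and the leukocyte gene Cd14 were called lower too. No fold is given, since Col1a2, Dcn and Nos3 entered the test only through the exosome arrays. The endothelial list summed to 783.9 to 1039 on the exosome arrays and to 997.5 and 1301 in the source cells, with 2 of 10 detected on any exosome array. The whole fibroblast list summed to 855.2 to 1148 on the exosome arrays and to 742.7 and 1135 in the source cells, with 2 of 10 detected on any exosome array, and the part of both lists in the member results was not tested.

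The 2 arrays of AS exosomes did not agree in these genes. Among the 39 members detected on both, the second array had 3.07 times the signal of the first at the median, with a range of 0.73 to 5.21, against 1.13 times for 1252 named genes detected on both. Atp5me, subunit e of ATP synthase, had 279 and 149 in AS-Tspan8 exosomes and 346 and 1803 in AS exosomes. Sdhc, Ndufa10, Ndufa10l1 and Ndufs4 differed less between the AS arrays, by ratios of 1.34, 1.14, 0.91 and 0.73. Ndufa10 had 137 and 120.1 in AS-Tspan8 exosomes and 271 and 308 in AS exosomes. The 2 arrays of AS-Tspan8 exosomes went the other way, with a median ratio of 0.69 for 25 members detected on both and 0.97 for 996 named genes.

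The excess of the second AS array was shared with other transcripts that are abundant in the cells. In the top decile of named genes by signal in AS cells, 38 of 49 members were detected on the first AS exosome array and all 49 on the second, and of the other genes in that decile 48.5% and 93.4%. The median ratio in that decile was 3.08 for 38 members and 2.07 for 622 other genes detected on both arrays. In every decile below the top the median ratio of the other genes was below 1. It was 0.53 in the first decile, 0.70 for 42 genes of the fifth and 0.93 in the ninth. In AS-Tspan8 exosomes the top decile by signal in AS-Tspan8 cells had ratios of 0.69 for 25 members and 0.82 for 369 other genes. These deciles were chosen after the member ratios were seen, and the ratios are a description with no test.

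**Figure D4:**
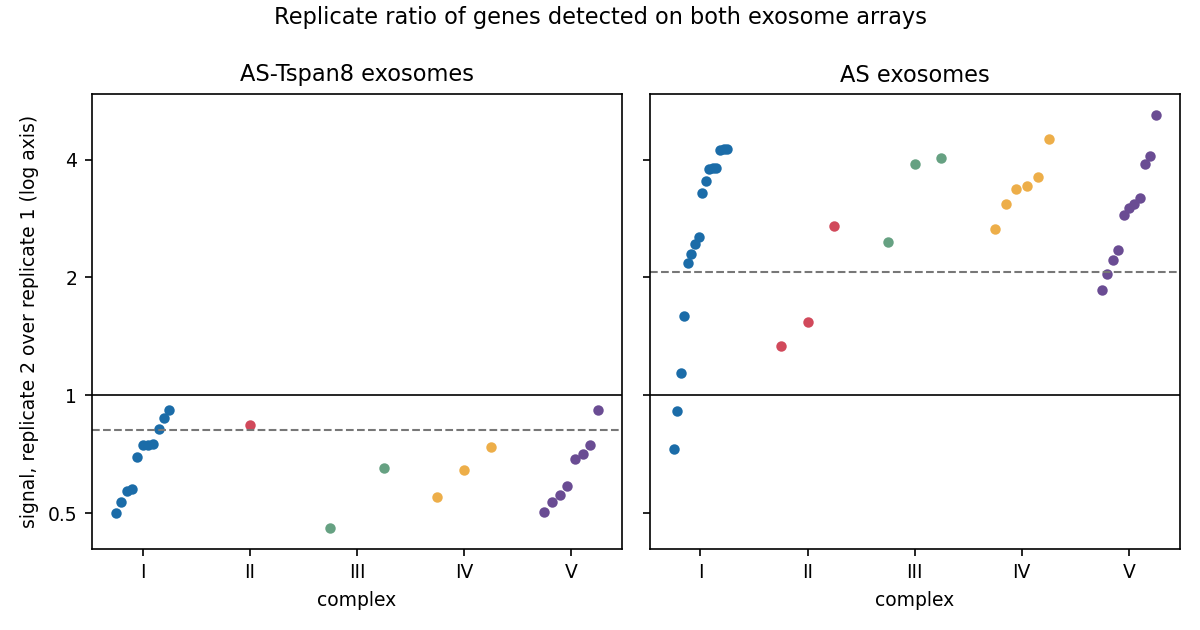
Ratio of the signal on replicate 2 to that on replicate 1 (log axis) for members detected on both exosome arrays, by complex, in AS-Tspan8 exosomes (left, 25 genes) and AS exosomes (right, 39 genes). The dashed line is the median of other named genes in the top decile by signal in the source cells, 0.82 on the left and 2.07 on the right; all points on the left lie below 1 and all but 2 on the right lie above it.

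The comparison of AS-Tspan8 with AS exosomes rests on those arrays. No feature passed an adjusted p of 0.05 (0% of 9421 features, limma, with 618 features and 3 members at an unadjusted p under 0.05). All 56 tested members had lower means in AS-Tspan8 exosomes, as had 5693 of all 9421 features. The median log2 difference was -0.95 for the members against -0.09 over all features. The arrays of the 2 groups did not overlap in 18 of 56 members, all lower in AS-Tspan8 exosomes, where 24.7% of all features were apart and lower and 15.4% apart and higher. Between arrays of the same number the median member difference was 0.14 for replicate 1, with 36 of 56 members higher in AS-Tspan8 exosomes, and -2.09 for replicate 2, with 55 of 56 lower. Without replicate 2 of AS exosomes the median was -0.34, against -0.02 over all features.

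The members with the lowest unadjusted p here were Ndufs1, at -4.03 ± 0.56 (SE, limma adjusted p = 0.659), Ndufs5, an accessory subunit of complex I, at -3.51 ± 0.87 (SE, limma adjusted p = 0.727), and Ndufa10 at -0.66 ± 0.19 (SE, limma adjusted p = 0.752). Ndufs5 had 73.8 and 71 in AS-Tspan8 exosomes and 97.2 and 143 in AS exosomes. Ndufs1 and Ndufs5 were detected on no AS-Tspan8 array and on 1 of the 2 AS arrays, so their differences have no measured lower end. Of the 3, Ndufa10 alone was detected on all 4 exosome arrays.

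Whether exosomes differed from their cells to another extent in the AS-Tspan8 line than in the AS line was tested as an interaction. Each line had 1 cell array, so the spread behind these SE and p-values came from the exosome arrays alone. Spread between cell samples did not enter. No feature passed (0% of 9421 features, limma, with 303 features and 1 member at an unadjusted p under 0.05). The median member difference of differences was -0.90 against -0.18 over all features, and it was -0.18 for members without replicate 2 of AS exosomes. Atp5f1a, the alpha subunit of the catalytic head, had 264 and 197 in AS-Tspan8 exosomes and 28979.6 in AS-Tspan8 cells. It had 430.3 and 799 in AS exosomes and 22121 in AS cells. Its interaction was -1.01 ± 0.43 (SE, limma adjusted p = 0.955). Ndufs1 stood at -3.23 ± 0.96 and Ndufs5 at -3.33 ± 1.51 (SE, limma adjusted p = 0.955 for each). Without scaling 7 members were called, all lower, against a larger share of all features, which are counted in the closing section. The medians were then -2.30 for members and -1.25 for all features. The interactions of Ndufa7, Ndufa10 and Ndufa10l1, which were 0.18, 0.13 and 0.16, turned to -0.86, -1.73 and -1.71.

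In EC the question was whether exosomes change the recipient cell. No member and no feature passed the test in EC given AS-Tspan8 exosomes against untreated EC (0% of 9025 features), in EC given AS exosomes against untreated EC (0%), or between EC given the 2 kinds of exosome (0%), with adjusted p from limma. At an unadjusted p under 0.05 there were 0 of 54 members in each, and 116, 62 and 51 features. The median member difference was -0.05 with AS-Tspan8 exosomes, -0.01 with AS exosomes and -0.004 between them, on the log2 scale, and single members ran from -0.49 to 0.21, from -0.31 to 0.26 and from -0.25 to 0.17. The 95% intervals of single members reached from -1.01 to 0.64 with AS-Tspan8 exosomes and from -0.91 to 0.71 with AS exosomes, over all 54 members. They came from the fit without replicate number, although replicate numbers paired the EC arrays. Between arrays of the same number the median member difference with AS-Tspan8 exosomes was -0.10 for replicate 1 and 0.02 for replicate 2. With AS exosomes it was -0.06 for replicate 1 and 0.02 for replicate 2. The comparisons with untreated EC share the untreated arrays.

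**Figure D5:**
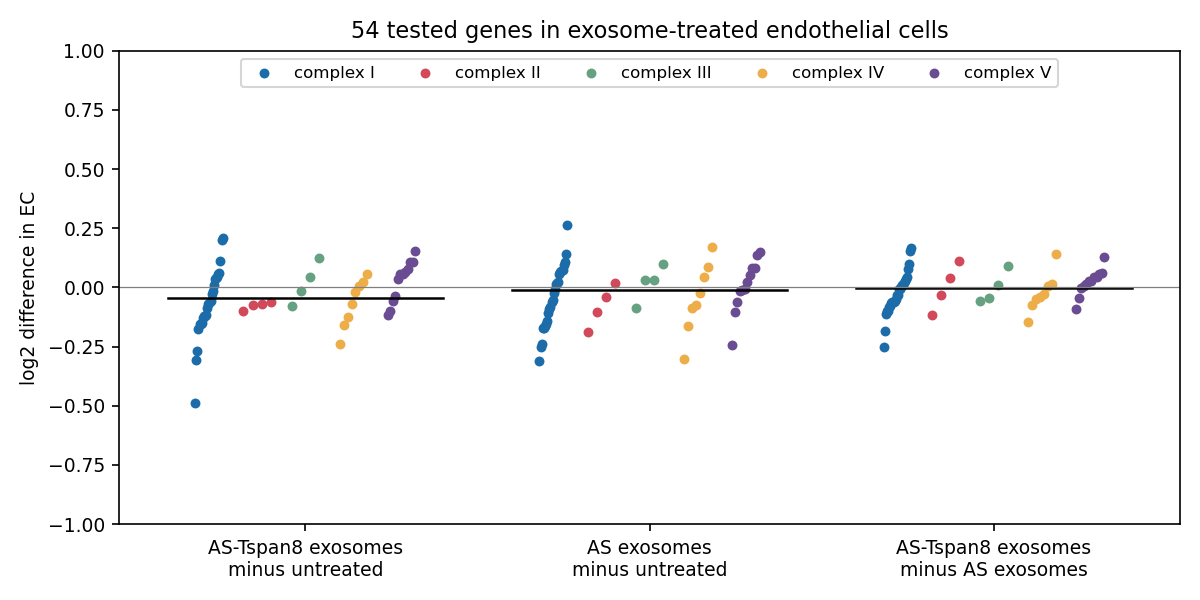
Log2 differences of the 54 tested members in EC for AS-Tspan8 exosomes minus untreated, AS exosomes minus untreated, and AS-Tspan8 exosomes minus AS exosomes, coloured by complex, with a black bar at the median. The bars lie at -0.05, -0.01 and -0.004, and no point lies beyond -0.49 or 0.26.

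In 14 of 54 members the arrays with AS-Tspan8 exosomes did not overlap the untreated ones. Of these 4 members were apart and higher and 10 apart and lower, where 13% and 12.1% of all features were. With AS exosomes 5 were higher and 11 lower, where 10.7% and 12.5% of all features were, and between the exosome kinds 5 were higher and 3 lower, where 9.75% and 7.97% of all features were. By complex the medians with AS-Tspan8 exosomes ran from -0.07 in complex I and in complex II to 0.06 in complex V, and with AS exosomes from -0.07 in complex II to 0.03 in complex III.

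Ndufa7, an accessory subunit of complex I near the detection limit in EC, had the largest member difference. Its signal was 89.99 and 94.4 in EC with AS-Tspan8 exosomes and 127 and 98.2 with AS exosomes, against 106 and 127 in untreated EC. The arrays with AS-Tspan8 exosomes were below both untreated arrays, at -0.49 ± 0.22 on the log2 scale (SE, limma adjusted p = 1). Ndufs1, in contrast, had 1077 and 1038 in EC with AS-Tspan8 exosomes and 1148 and 1281 with AS exosomes, against 1032 and 1021 in untreated EC. All 4 treated arrays were above both untreated arrays, by 0.20 ± 0.18 with AS-Tspan8 exosomes (SE, limma adjusted p = 1) and 0.26 ± 0.18 with AS exosomes (SE, limma adjusted p = 0.9997). Cox7b, a small subunit of complex IV, had 5261 and 4838 in EC with AS-Tspan8 exosomes and 4851 and 5113 with AS exosomes, against 6182 and 6238 in untreated EC. All 4 treated arrays were below the untreated ones, with -0.30 ± 0.17 for AS exosomes (SE, limma adjusted p = 0.9997).

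The other members with the lowest unadjusted p in each direction also missed the test. With AS-Tspan8 exosomes these were Ndufb7 at 0.21 ± 0.17 and Atp5me at 0.15 ± 0.16, and on the negative side Ndufs5 at -0.31 ± 0.25 and Ndufv3 at -0.27 ± 0.16, on the log2 scale with SE. With AS exosomes they were Atp5me at 0.14 ± 0.16 and Ndufa6 at 0.14 ± 0.17, against Atp5f1d at -0.25 ± 0.17 and Ndufb8 at -0.25 ± 0.18. Between the exosome kinds they were Ndufb6 at 0.17 ± 0.17, Ndufb7 at 0.16 ± 0.17 and Cox7b at 0.14 ± 0.17, against Ndufa7 at -0.25 ± 0.22, Ndufa10l1 at -0.18 ± 0.16 and Ndufv3 at -0.11 ± 0.16. None of them passed the test.

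The members with the highest EC signal of their complex were Ndufb9, Sdhc, Uqcrh, Cox6a1 and Atp5po, and their spread over the EC arrays differed. The highest EC array was 1.19 times the lowest for Cox6a1, 1.31 times for Sdhc and 1.35 times for Ndufb9. Atp5po, the stalk subunit that gives ATP synthase its oligomycin sensitivity, had 13061 and 11943 in EC with AS-Tspan8 exosomes and 12761 and 12730.5 with AS exosomes, against 13355 and 12825 in untreated EC. Its highest EC array was 1.12 times its lowest. Uqcrh had 16661 and 11494 in EC with AS-Tspan8 exosomes and 17209 and 13312 with AS exosomes, against 14979.6 and 14016 in untreated EC, and its highest EC array was 1.497 times its lowest. Ndufb9, an accessory subunit, had 7954 and 6809.7 in EC with AS-Tspan8 exosomes and 8983 and 7639.9 with AS exosomes, against 9167 and 8263 in untreated EC. The Ndufb9 signals with AS-Tspan8 exosomes were below the untreated ones but overlapped them after normalization, and none of these leading genes passed the test.

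Other genes of the pathway gave no calls in EC either. Among 24 assembly factors, 13 genes of the tricarboxylic acid cycle, 9 of electron carriers and coenzyme Q, 10 biogenesis regulators and 14 of glycolysis, none passed in any of the 3 comparisons. The glycolysis genes had medians of 0.45 with AS-Tspan8 exosomes and 0.20 with AS exosomes, with 13 of 14 positive in each, beside the member medians of -0.05 and -0.01. Fibroblast markers had a median of -0.39 with AS-Tspan8 exosomes and 0.05 with AS exosomes, with none of 10 called, and Thy1 stood at -1.08 ± 0.35 with AS-Tspan8 exosomes (SE, limma adjusted p = 1); their part in the member values was not tested.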

How the data were processed

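Total RNA of 12 samples was measured on a rat expression bead array. Deposited per-probe signal intensity values, with no normalization per the file headers, came with detection p-values, which the authors' scanner software gives for each probe, per the file headers. A deposited table of the authors' processed values served as an alternative. The background correction used normexp on the detection p-values, with an offset of 16, followed by log2 and quantile normalization within sets of arrays (limma 3.58.1, R 4.3.3). The sets were all EC arrays, all tumour cell and exosome arrays, and, for tumour cells against untreated EC, all EC and tumour cell arrays. Each set was normalized, filtered and fitted together, so groups outside a comparison also entered its normalization and spread. Probes detected at p under 0.01 on at least 2 arrays were tested with limma's moderated test across all features in 7 comparisons, adjusted by the Benjamini-Hochberg method. Depth is not defined for arrays, and the number of arrays limits the precision.

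The members, pathway lists, marker lists and tests were chosen with earlier results of these data known. Members named were those past an adjusted p of 0.05 (where there were over 8, the 4 with the largest difference in each direction), the 3 with the lowest unadjusted p in each direction where none passed, the highest mean signal of each complex in EC and in exosomes, and the isoform sets. Up to 3 genes of a list were named by lowest unadjusted p. Any other gene named was chosen after its values were seen. Replicate numbers paired the EC arrays, whose deviations correlated at 0.50, 0.37 and 0.55 between groups, but not the exosome arrays, at -0.33. Alternatives covered scaling, background correction, the filter, the authors' table, replicate blocks and leaving out each array. The script was tested on simulated data.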

Additional observations from a re-analysis of the deposited data

How the results depend on the processing

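Scaling between arrays and leaving out single arrays both moved the results. For exosomes against source cells, no scaling gave 8588 called features, 54 called members and a member median of -6.30, and scaling to the same median gave 8904, 56 and -6.13. Called members numbered 26 without background correction and 6 without the filter on detection. Leaving out each array in turn gave 646 to 6936 called features and 2 to 33 called members. For the interaction of line and fraction, no scaling gave 4544 features, 7 members and a member median of -2.30, with Ndufa7, Ndufa10 and Ndufa10l1 turned to -0.86, -1.73 and -1.71, and scaling to the same median gave 1145 features. For tumour cells against untreated EC, the member median was 1.24 without scaling and 1.11 with scaling to the same median, and Ndufv3 turned to 0.16 and 0.034. With each array left out in turn that median ran from 0.54 to 0.80 and the called members from 21 to 39. Without scaling, EC given AS-Tspan8 exosomes minus untreated EC had a median of -0.20 for members and -0.13 for all features. Minus EC given AS exosomes, the medians were -0.13 for members and -0.10 for all features. The cause of these changes was not tested. Ranks among detected genes were also taken, for the members detected on each array only, so their medians leave out undetected members. In AS-Tspan8 exosomes these medians were the percentiles 70.6 and 57.2 (38 and 25 members). In AS exosomes they were 65.2 and 90.3 (39 and 51 members). They were 91.3 on the first array of EC with AS-Tspan8 exosomes. In EC with AS exosomes they were 91.7 and 92.1, and in untreated EC 92.2 and 91.8. At a detection p under 0.05, 38 members were detected on the second array of AS-Tspan8 exosomes. With the replicate number as a block, 0 features and 0 members were called in each of the 3 EC comparisons and between the exosome groups, and the block changed no call. Crossing the exosome numbers, a pairing chosen after seeing the data, also gave 0 features and 0 members. Among single named genes, some calls were lost when an array was left out, and 1 value of a gene called in neither fit turned in sign. Other settings kept 277 values on their side of the threshold, while 11 lost their call. A further 5 values turned in sign where a call stood in the main or the other setting, and 4 where none stood in either. Signals near background limit what the exosome arrays can show.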
